A study of Populus tremula x Populus alba with 20 samples.

Results

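The 150 genes described here had the highest levels, among 2673 that met the rule below, in apical buds of hybrid poplar harvested at the end of 8 short-day weeks (SD8). They were at or near silence at the second harvest (CH2), once the short days had gone on for 2 more weeks with the plants kept at 4 °C. They were picked from 31823 genes in 3 steps. The level of a gene in a library was its read count divided by the column total and multiplied by 1000000 (CPM). A gene needed a mean under 0.5 CPM over the 10 CH2 libraries, which 8165 genes had. Its SD8 mean also had to be at least 4 times the CH2 mean, which left 2757 genes. The ranges of overexpressor and wild-type libraries had to overlap at CH2, which left 2673, and the 150 with the highest SD8 mean were kept. The fall between harvests and the overlap at CH2 therefore chose these genes, and both are given as descriptions with no test.

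The buds came from Populus tremula x Populus alba, clone INRA 717 1B4, which is widely used for poplar transformation. Wild-type plants (WT) were the control, and 4 transgenic lines overexpressed a TEMPRANILLO-like protein. The lines TEML1_1ox and TEML1_2ox carry the construct TEML1ox, and TEML2_1ox and TEML2_2ox carry TEML2ox. The sources used here do not give the promoter that drives the constructs, nor how each line was derived. All groups, WT included, were grown in long days and then had the 8 weeks of short days, and all harvests were at ZT7. Each line and WT gave 2 replicates per harvest, or 20 libraries of polyadenylated RNA, and each replicate pooled several buds or plants. The labels call the replicates biological, so in tests of single lines the p-values measure the spread between such pools. In tests that pool the lines of a construct, that spread also holds differences between lines, and libraries of a line are not independent.

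Buds of temperate trees stop growing and set under short days and then enter dormancy, in which they do not resume growth even in warmth. Prolonged cold releases that state, and the genes active in a resting bud are known to change widely over that time. In Arabidopsis, TEMPRANILLO proteins bind DNA and are best known for delaying the switch to flowering. The series title places the work in dormancy release. The files give gene identifiers without names, so the genes are described by identifier, level and pattern, and no function is assigned to any of them.

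Libraries held 35779227 to 38972077 counts at SD8 and 37327490 to 39352645 at CH2. A level of 0.5 CPM was about 19.2 counts in an average CH2 library, and 3 counts, taken as the limit that a count of 0 allows, came to 0.0762 to 0.0804 CPM in the CH2 libraries. Such limits cover counting error only. Both TEML2_2ox libraries stood apart from the others at SD8, so results that rest on them are given with and without single libraries. Each harvest was deposited as its own table. Chilling, 2 more weeks in short days and any difference in preparation or sequencing between the harvests cannot be told apart. In whole buds, fewer cells of a type and less RNA per cell cannot be told apart either.

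The 150 genes were lowly to moderately expressed before chilling. Their SD8 means ran from 3.68 to 29.0 CPM with a median of 5.62 CPM, and the median over the 26947 genes tested at SD8 was 15.3 CPM. Only 16 of them reached 10 CPM. At CH2 their means ran from 0.0157 to 0.496 CPM with a median of 0.285 CPM. The fold between the harvest means ran from 8.15 to 360 with a median of 22.3, and it was 10 or more in 138 genes and 50 or more in 23. Added together, the 150 genes took 641 to 1649 CPM of the SD8 libraries and 31.6 to 59.5 CPM of the CH2 libraries.

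The genes were near silence at CH2 rather than silent. None of the 150 was at 0 counts in all 10 CH2 libraries, and 92 had at least 1 count in every one of them. A further 58 were at 0 in at least 1 CH2 library, 11 of them in 5 or more. The CH2 mean of 13 genes lay under the 3-count limit of an average library. In 144 genes every SD8 library lay above every CH2 library, and in 6 the harvests overlapped. In each of those 6 the lowest SD8 library was at 0.160 CPM or less.

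**Figure D1:**
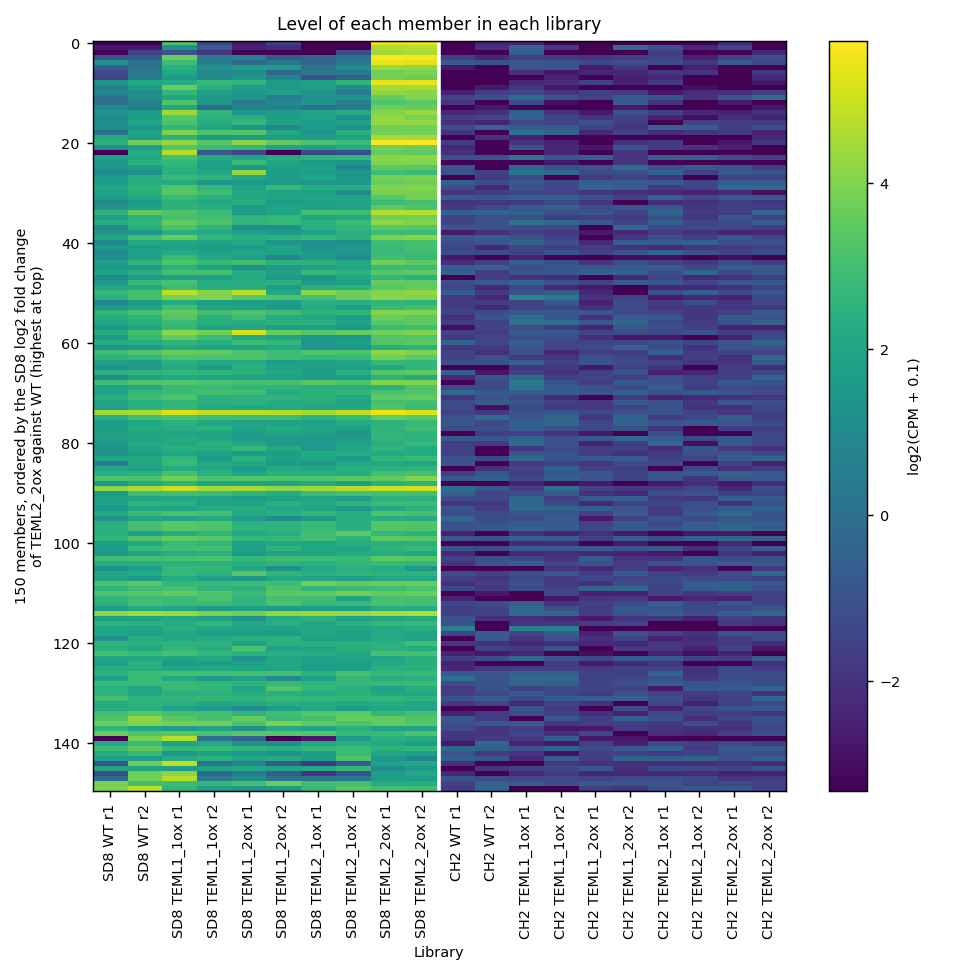
Level of each of the 150 genes (rows, ordered by the SD8 log2 fold change of TEML2_2ox against WT) in each of the 20 libraries (columns, r for replicate), coloured by log2(CPM + 0.1). The SD8 columns on the left are bright in most rows and the CH2 columns on the right are dark, and the upper rows are brightest in both TEML2_2ox columns at SD8.

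PtXaAlbH.13G122500.v5.1 had the highest SD8 mean of the 150. At SD8 it was lowest at 21.5 CPM in WT replicate 1 and highest at 41.6 CPM in TEML2_2ox replicate 1, with a median of 27.8 CPM and a mean of 29.0 ± 6.81 CPM (SD, n = 10). At CH2 all 10 libraries lay between 0.156 and 0.487 CPM, or 6 to 19 counts. PtXaAlbH.13G007600.v5.1 was second, at 24.7 ± 5.55 CPM at SD8 and 0.377 ± 0.271 CPM at CH2 (SD, n = 10 each). Its CH2 values were uneven, with 33 counts in WT replicate 1 and in TEML1_1ox replicate 2 and 4 counts in TEML2_2ox replicate 1. No SD8 library of either gene came near a CH2 library.

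The limits of the rule cut through a continuous range. The last gene kept, PtXaAlbH.18G058000.v5.1, had an SD8 mean of 3.679 CPM and the next one, PtXaAlbH.14G082600.v5.1, one of 3.674 CPM. The member closest to the CH2 limit, PtXaAlbH.17G073000.v5.1, stood at 0.496 CPM, and the nearest gene outside it, PtXaAlbH.01G163800.v5.1, at 0.501 CPM with 5.18 CPM at SD8. With a CH2 limit of 0.25 CPM 65 of the 150 remained, and with a limit of 1 CPM, where more abundant genes enter, 49 remained. Without the TEML2_2ox line at either harvest 125 of the 150 were chosen again.

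The fall was present in every genotype for most of the genes. Taken line by line, the SD8 mean was at least 4 times the CH2 mean in 146 of the 150 genes in WT, 147 in TEML1_1ox, 146 in TEML1_2ox, 142 in TEML2_1ox and 150 in TEML2_2ox. The description as shut off by chilling thus failed for 4 of them in WT, 3 in TEML1_1ox, 4 in TEML1_2ox and 8 in TEML2_1ox. At SD8, 4 genes were already under 0.5 CPM in WT, 1 in TEML1_1ox, 5 in TEML1_2ox and 7 in TEML2_1ox. At CH2 the median of the line means was 0.238 CPM in WT, 0.236 in TEML1_2ox, 0.245 in TEML2_1ox, 0.270 in TEML2_2ox and 0.331 in TEML1_1ox. TEML1_1ox had the highest CH2 mean of the 5 genotypes for 63 genes. Its 2 libraries held the highest CH2 sums, 59.5 and 48.8 CPM, against 31.6 to 44.2 CPM in the other 8. The rule used these CH2 levels, and the share of all genes highest in TEML1_1ox was not counted, so the 63 has no background.

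**Figure D2:**
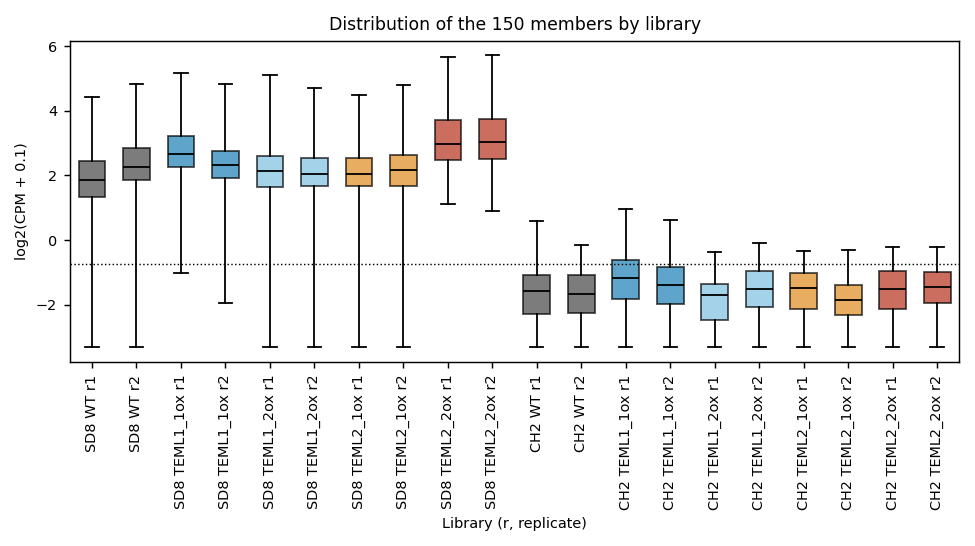
Distribution of the 150 genes in each library as log2(CPM + 0.1), with boxes from the lower to the upper quartile, a line at the median and whiskers to the lowest and highest gene; the dotted line marks 0.5 CPM. Both TEML2_2ox boxes sit highest at SD8, with lowest genes at 2.06 and 1.77 CPM, and the CH2 boxes lie below the dotted line except the top of TEML1_1ox replicate 1.

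What the rule did not use was the difference between genotypes at SD8, although it ranked genes by the mean of all 10 SD8 libraries and so favoured genes that were high in any of them. Before chilling the 150 genes were highest in TEML2_2ox. Their median level was 8.00 CPM there, 5.65 in TEML1_1ox, 4.30 in TEML2_1ox, 4.27 in WT and 4.15 in TEML1_2ox. TEML2_2ox had the highest mean of the 5 genotypes for 105 genes, TEML1_1ox for 16, WT for 14, TEML1_2ox for 8 and TEML2_1ox for 7. The share of all genes highest in each genotype was not counted, so these numbers have no background. Both TEML2_2ox libraries lay above both TEML2_1ox libraries in 76% of the 150, against 44.2% of all genes tested. The summed level was 1635 and 1649 CPM in the TEML2_2ox libraries. It was 1222 and 844 CPM in TEML1_1ox, 811 and 719 in TEML1_2ox, 727 and 770 in TEML2_1ox, and 641 and 883 in WT. Both TEML1_1ox libraries lay above those of TEML1_2ox and TEML2_1ox, and the WT range overlapped the ranges of TEML1_1ox, TEML1_2ox and TEML2_1ox.

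Against WT, 75 of the 150 genes (50%) were higher in TEML2_2ox at SD8 and 3 were lower, at an edgeR adjusted p under 0.05. Of all 26947 genes tested, 12.9% were higher and 10.7% lower in the same comparison, 23.6% in all. Of the 150, 57 were higher by 2-fold or more, against 5.73% of all genes. All 150 passed the low-count filter, and all had at least 10 counts in 2 or more SD8 libraries outside TEML2_2ox. The median log2 fold change was 0.77 over the 150 and -0.01 over all genes tested. Leaving out 1 library lowered the count of 78 called genes to 49 without TEML2_2ox replicate 1, 48 without replicate 2 and 50 without WT replicate 1, where 8.12%, 9.95% and 8.51% of all genes were called. That median was 0.60 without WT replicate 1 and 1.05 without WT replicate 2. When the genes were instead ranked by the 6 SD8 libraries of the other lines, so that neither group compared took part in the ranking, 136 of the 150 were chosen again. Of that set of 150, 62 were higher in TEML2_2ox and 4 lower, with a median log2 fold change of 0.65.

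Most of the 150 lay higher in TEML2_2ox than in WT, by unequal amounts. The log2 fold change was above 0 in 127 (84.7%), against 48.8% of all genes. Both TEML2_2ox libraries lay above both WT libraries in 117 (78%), against 37.1% of all genes. Both TEML2_2ox libraries together held a median of 27.5% of the SD8 sum of a gene, against a median of 20.7% over all genes tested. In 17 genes they held over 50%, against 363 of all 26947 genes tested. All 17 were called higher against WT, with 12.2 to 51.2 CPM in TEML2_2ox and 0 to 9.30 CPM in WT. The share and the call use the same TEML2_2ox libraries, so the call was largely set by the way the 17 were picked. In 7 of the 17, WT was under 1 CPM. Among the 75 genes called higher, the median level was 12.2 CPM in TEML2_2ox and 3.54 in WT at SD8, a gap that the call itself selects. It was 5.60 CPM in TEML1_1ox, 3.92 in TEML1_2ox and 3.70 in TEML2_1ox. In the 75 not called higher it was 5.72 CPM in TEML2_2ox, 5.08 in WT and 5.88 in TEML1_1ox. At CH2 the 75 called higher had medians of 0.245 CPM in TEML2_2ox and 0.198 CPM in WT.

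The largest fold was that of PtXaAlbH.19G032100.v5.1. At SD8 it had 1673 and 1631 counts in TEML2_2ox, 356 and 10 in TEML1_1ox, 2 and 8 in TEML1_2ox, and 0 in both libraries of TEML2_1ox and of WT. TEML2_2ox thus stood at 42.5 ± 0.879 CPM (SD, n = 2), above every other library. This was at least 1063-fold higher than WT against a limit of 3 counts over both WT libraries (edgeR adjusted p = 0.00321) and at least 1039-fold higher than TEML2_1ox on the same limit (edgeR adjusted p = 0.00432). Both TEML2_2ox libraries held 89.5% of the SD8 sum of this gene, on which its rank rested. These comparisons are therefore not independent of the rule. At CH2 no library held more than 4 counts. In WT and TEML2_1ox this gene was therefore not shut off between the harvests, as it was at 0 before chilling.

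PtXaAlbH.18G094300.v5.1 followed the same order. It had 930 and 1007 counts in TEML2_2ox at SD8, 83 and 19 in TEML1_1ox, 3 and 4 in TEML1_2ox, 2 and 2 in WT and 0 in both TEML2_1ox libraries. The groups of TEML2_2ox and WT did not overlap, and the log2 fold change was 8.74 ± 0.68 (SE, edgeR adjusted p = 0.000204), a size that rests on 4 WT counts. Against TEML2_1ox it was at least 609-fold higher (edgeR adjusted p = 0.000350). The SD8 mean of 5.28 CPM also rested on TEML2_2ox, at 24.9 CPM, as no other genotype had a mean above 1.35 CPM. These comparisons too are not independent of the rule. At CH2 the gene ranged from 0 to 32 counts, the highest in TEML1_2ox replicate 2, and in WT, TEML1_2ox and TEML2_1ox the summed counts were no lower at CH2 than at SD8.

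A few genes went the other way. PtXaAlbH.14G080400.v5.1 stood at 15.7 and 28.3 CPM in WT at SD8. All 8 overexpressor libraries were below both, with 6.03 and 3.38 CPM in TEML1_1ox, 2.54 and 2.93 in TEML1_2ox, 6.38 and 10.3 in TEML2_1ox, and 7.75 and 7.70 in TEML2_2ox. It fell by 1.55 ± 0.31 (SE) on the log2 scale against WT in TEML2_2ox, by 2.19 ± 0.32 in TEML1_1ox and by 2.95 ± 0.34 in TEML1_2ox, with edgeR adjusted p of 0.00632, 0.0272 and 0.0122. In TEML2_1ox the log2 fold change was -1.32 ± 0.31 (edgeR adjusted p = 0.273) and did not pass. These comparisons share both WT libraries. The TEML2_2ox call was lost without either TEML2_2ox replicate (edgeR adjusted p = 0.0620 and 0.0556), the TEML1_1ox call without either TEML1_1ox or either TEML2_2ox replicate (edgeR adjusted p up to 0.106), and the TEML1_2ox call without TEML1_2ox replicate 1 or either TEML2_2ox replicate (edgeR adjusted p up to 0.0971). At CH2 the gene was at 0 in both TEML1_1ox libraries and at 0.184 and 0.697 CPM in WT.

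PtXaAlbH.03G155500.v5.1 was also lower in TEML2_2ox, at 4.87 and 4.82 CPM against 14.4 and 7.84 CPM in WT. Its log2 fold change was -1.24 ± 0.28 (SE, edgeR adjusted p = 0.0104), which became -0.73 without WT replicate 1 (edgeR adjusted p = 0.103). The call was lost without either TEML2_2ox replicate too (edgeR adjusted p = 0.0787 and 0.0705). WT replicate 2 lay within the range of the other overexpressor lines, 6.49 to 12.5 CPM. The third gene called lower, outside the rule for named genes and chosen after its values were seen, was PtXaAlbH.11G106900.v5.1.

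**Figure D3:**
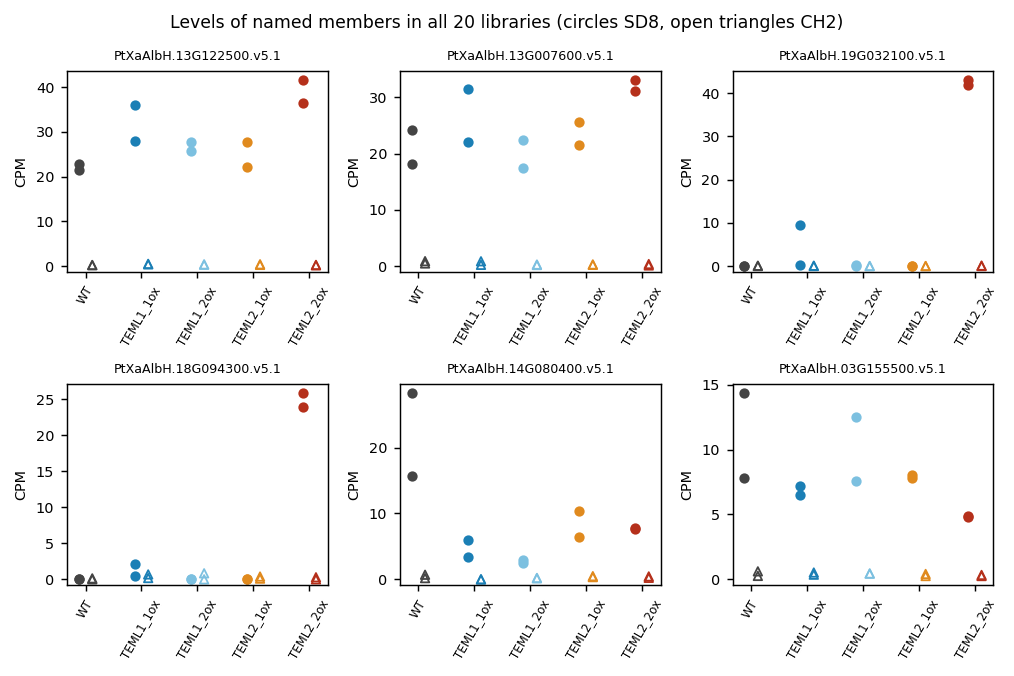
CPM of 6 named genes in all 20 libraries by genotype, with filled circles for SD8 and open triangles for CH2, 2 of each per genotype. PtXaAlbH.19G032100.v5.1 and PtXaAlbH.18G094300.v5.1 have both TEML2_2ox circles far above all others, at 41.9 and 43.1 CPM and at 24.0 and 25.8 CPM, and PtXaAlbH.14G080400.v5.1 is highest in both WT libraries.

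The other lines differed from WT at few of the 150 genes. In TEML1_1ox 0 were higher and 1 was lower, PtXaAlbH.14G080400.v5.1, where 0.186% of all genes tested were higher and 0.0742% lower, 0.26% in all. Both TEML1_1ox libraries lay above both WT libraries for 77 of the 150 (51.3%), against 20% of all genes. In that line 63 of the 150 had an unadjusted p under 0.05, against 15.2% of all genes, and DESeq2 called 27, 26 of them higher, where it called 2.86% of all genes. The median log2 fold change was 0.51 over the 150 and 0.00 over all genes. It was 0.27 without TEML1_1ox replicate 1, 0.29 without WT replicate 1 and 0.74 without WT replicate 2. The count of 1 called gene turned on single libraries, and its range is given below with the highest share of all genes.

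In TEML1_2ox 0 were higher and the same gene alone was lower, where 0.0482% and 0.0705% of all genes tested passed, 0.119% in all. In that line 27 of the 150 had an unadjusted p under 0.05, against 13.7% of all genes. This count turned on single libraries too, and its range is given below with the highest share of all genes. In TEML2_1ox edgeR called 0 of the 150, where 0.122% of all genes passed. There 22 had an unadjusted p under 0.05, against 6.83% of all genes, DESeq2 called 3, with 0.586% of all genes, and limma-voom 0. The median log2 fold change over the 150 was 0.08 in TEML1_2ox and 0.07 in TEML2_1ox, and without WT replicate 1 it changed sign to -0.04 and -0.08. Without WT replicate 2 it was 0.31 and 0.32.

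With both lines of a construct pooled, edgeR called 0 of the 150 in either construct and 0% of all genes tested. For TEML1ox 18 of the 150 had an unadjusted p under 0.05, against 7.32% of all genes, DESeq2 called 3, with 0.263% of all genes, and limma-voom 0. For TEML2ox 44 had an unadjusted p under 0.05, against 10.8% of all genes, DESeq2 called 4, with 0.776% of all genes, and limma-voom 0. When each line was its own group and TEML2ox was taken as the mean of its lines, 28 of the 150 passed, 27 of them higher, where 4.25% of all genes passed. Without TEML1_1ox replicate 1 the TEML1ox count was 1. For TEML2ox the median log2 fold change over the 150 was 0.49. It was 0.07 without the TEML2_2ox line, 0.33 without WT replicate 1 and 0.78 without WT replicate 2.

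**Figure D4:**
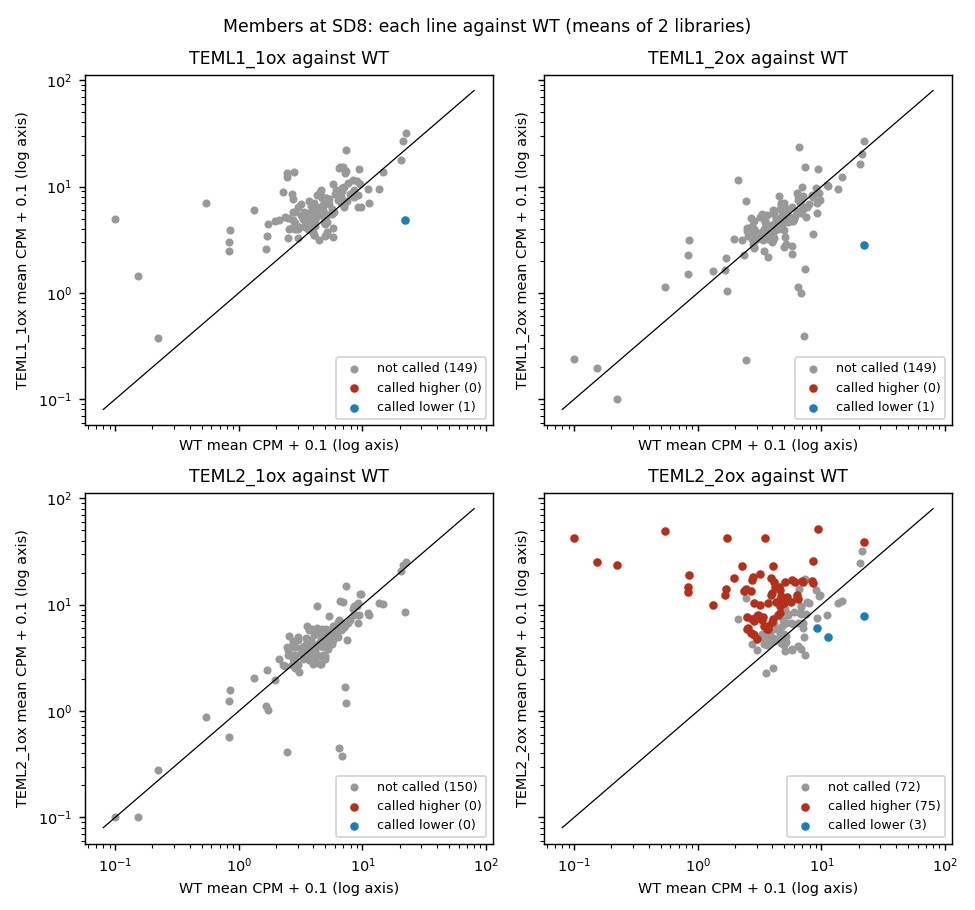
SD8 mean of each of the 150 genes in a line (vertical) against its mean in WT (horizontal), both as CPM + 0.1 on log axes, with 2 libraries per mean; the diagonal marks equal levels and colours mark an edgeR adjusted p under 0.05. In the TEML2_2ox panel 75 genes are called higher and 3 lower, and in the other 3 panels 1, 1 and 0 genes are called, all lower.

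The lines of the TEML2ox construct differed from each other at many of these genes. In the direct test at SD8, 66 of the 150 (44%) were higher in TEML2_2ox than in TEML2_1ox and 3 lower (edgeR adjusted p under 0.05), where 11.2% and 9.2% of all genes tested passed, 20.3% in all. The median log2 fold change was 0.65. That median was 0.63 without TEML2_1ox replicate 2, 0.64 without TEML2_2ox replicate 1 and 0.63 without TEML2_2ox replicate 2. The count of 69 fell without any of these libraries, as did the share of all genes called. Ranked by the libraries of the other genotypes, 51 of the 150 genes then chosen were higher and 3 lower. Of the 75 genes higher against WT, 64 were also among the 66 higher against TEML2_1ox. That is 85.3% of the first list and 97.0% of the second. Both comparisons use the same TEML2_2ox libraries, and the overlap over all genes was not counted, so these shares have no background.

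Among the 3 that were lower, PtXaAlbH.03G050000.v5.1 stood at 2.06 and 2.80 CPM in TEML2_2ox and 4.47 and 6.45 CPM in TEML2_1ox, with no overlap. Its log2 fold change was -1.28 ± 0.25 (SE, edgeR adjusted p = 0.00723), lost without TEML2_1ox replicate 2 or TEML2_2ox replicate 1 (edgeR adjusted p = 0.0643 and 0.0836). PtXaAlbH.09G101900.v5.1 stood at 2.63 and 1.77 CPM against 3.11 and 9.16 CPM, and its log2 fold change was -1.59 ± 0.41 (SE, edgeR adjusted p = 0.0219). That value was -0.62 without TEML2_1ox replicate 2 (edgeR adjusted p = 0.220), the library at 9.16 CPM. The call was also lost without either TEML2_2ox replicate (edgeR adjusted p = 0.0877 and 0.145), and limma-voom gave an adjusted p of 0.0565. The third, PtXaAlbH.18G057300.v5.1, is outside the rule for named genes and was chosen after its values were seen.

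Between the lines of the TEML1ox construct edgeR called 0 of the 150, where 0.0223% of all genes passed. There 47 had an unadjusted p under 0.05, against 9.99% of all genes, DESeq2 called 9, with 1.35% of all genes, and limma-voom 0. The median log2 fold change of TEML1_2ox against TEML1_1ox was -0.31 over the 150 and 0.00 over all genes. It was -0.13 without TEML1_1ox replicate 1 and -0.45 without TEML1_1ox replicate 2. The count rose from 0 with some single libraries left out, where the share of all genes called rose too.

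The contrast of TEML2_2ox with TEML2_1ox and that of TEML1_1ox with TEML1_2ox use no library in common. Of the 150 genes, 121 were higher in TEML2_2ox, 125 in TEML1_1ox and 105 (70%) in both. Over all 26947 genes tested 13166 (48.9%) were higher in TEML2_2ox, 13293 in TEML1_1ox and 8146 (30.2%) in both. With most of the 150 higher in each contrast, most would be higher in both even if the contrasts were unrelated. Across the 150 genes these log2 fold changes had a Pearson r of 0.67 and a Spearman rho of 0.48, against 0.39 and 0.34 across all 26947 genes, where genes are not independent replicates. Among the 150, 2 genes in the first contrast and 1 in the second had a group at 0 counts. The Pearson r used their fitted fold changes, whose size a count of 0 does not set. Neither correlation was computed with single libraries left out. The ranking by SD8 mean favours genes that are high in any line, which bears on both contrasts.

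**Figure D5:**
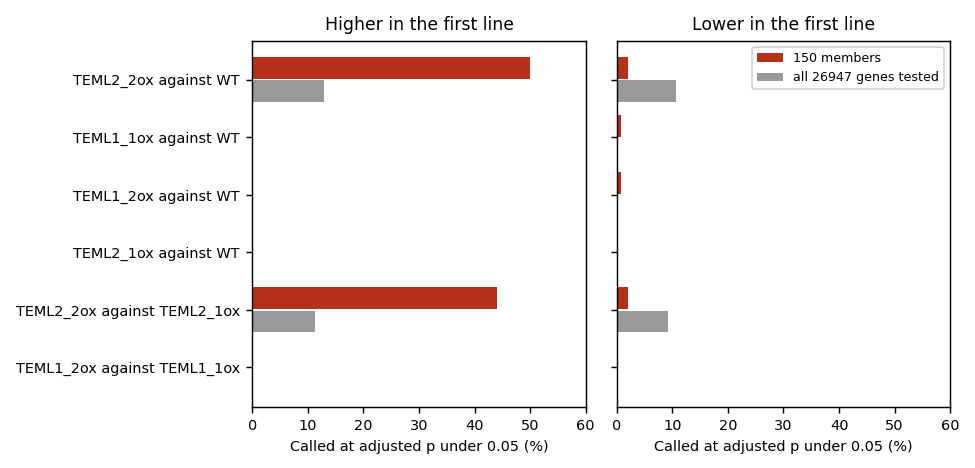
Share of the 150 genes and of all 26947 genes tested that were called at an edgeR adjusted p under 0.05 in 6 comparisons at SD8, with genes higher in the first-named line on the left and lower on the right. Bars reach 50% and 44% for the comparisons of TEML2_2ox with WT and with TEML2_1ox, beside 12.9% and 11.2% of all genes.

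The 150 genes varied more between SD8 libraries than genes in general. The coefficient of variation over the 10 SD8 libraries had a median of 34.5%, against 13.8% over all genes tested. It was 100% or more in 19 of the 150 (12.7%), against 1.62% of all genes. The ranking by the mean of the same 10 libraries favoured genes that were high in a few of them. The median SD8 level also differed, 5.62 CPM over the 150 against 15.3 CPM over all genes tested, and genes of like level were not compared. At the other end, 9 genes stayed under 15%. The steadiest, PtXaAlbH.01G242500.v5.1, stayed between 5.85 and 7.01 CPM in all 10 SD8 libraries, at 6.55 ± 0.394 CPM (SD, n = 10). It then stood at 0.262 to 0.709 CPM at CH2. This gene was chosen after its values were seen.

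In 7 of the 150 genes (4.67%), replicates of the same line differed by 10-fold or more at SD8 with the higher at 1 CPM or more, against 0.293% of all genes tested. The ranking by the mean of the same SD8 libraries favoured genes that were high in 1 of them. The difference between these shares is therefore not independent of the rule. Without TEML1_1ox replicate 1 at SD8, 142 of the 150 were chosen again. In 5 of the 7 the discordance was shared. TEML1_1ox replicate 1 was the highest of the 10 SD8 libraries, and WT replicate 2 was far above WT replicate 1. PtXaAlbH.17G008800.v5.1, an example chosen after its values were seen, had 29.0 and 1.00 CPM in the TEML1_1ox replicates and 0.394 and 12.4 CPM in the WT replicates. It had 3.71 and 4.34 CPM in TEML2_2ox and 0.186 to 1.58 CPM in the other 4 libraries. PtXaAlbH.10G007200.v5.1, chosen in the same way, had 25.8 and 0.870 CPM in TEML1_1ox, 0 and 14.3 CPM in WT and 0.0532 and 3.10 CPM in TEML2_1ox. In both genes the replicates of TEML1_1ox and those of WT lay farther apart than the means of TEML1_1ox and WT.

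The other 2 of the 7 were high in both TEML2_2ox libraries. One was PtXaAlbH.19G032100.v5.1. The other, PtXaAlbH.12G022200.v5.1, also chosen after its values were seen, had 50.6 and 48.5 CPM in TEML2_2ox, 12.7 and 1.13 CPM in TEML1_1ox and 0.394 and 0.487 CPM in WT. Its CH2 values lay between 0.0763 and 0.356 CPM, so WT was close to them before chilling.

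Of the 5 genes with shared discordance, 4 had identifiers close together, from PtXaAlbH.17G008400.v5.1 to PtXaAlbH.17G009100.v5.1. The number before the letter G runs from 1 to 19 in the identifiers, and all 19 numbers held some of the 150. Number 17 held 12 of them, or 8% against 3.86% of all genes, and number 19 held 10, or 6.67% against 3.40%. Number 1 held 18, or 12% against 11.9%, and number 6 held 5, or 3.33% against 7.38%. When identifiers were put in order, 51 of the 150 (34%) stood next to another of the 2673 genes that met the rule, against 15.7% of all 31823 genes.

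In 4 places members stood directly next to each other in that order, 10 genes in all. The longest run had 4, from PtXaAlbH.17G072800.v5.1 to PtXaAlbH.17G073100.v5.1. Each of the 4 took a nearly fixed share of the counts of the run in all 10 SD8 libraries, 24.3 to 25.4%, 24.4 to 25.6%, 27.4 to 28.5% and 20.8 to 23.7%. The sources used here do not say how reads of similar copies were counted, so these 4 may not be independent measurements. PtXaAlbH.01G190500.v5.1 and PtXaAlbH.01G190600.v5.1 formed another run. They stood at 16.1 and 51.2 CPM in TEML2_2ox and at 4.03 and 9.30 CPM in WT at SD8 (means, n = 2), with log2 fold changes of 1.96 ± 0.35 and 2.42 ± 0.37 (SE, edgeR adjusted p = 0.00371 and 0.00190). Adjacent genes did not always move together. PtXaAlbH.03G044800.v5.1 stood at 4.69 CPM in TEML2_2ox and 4.32 CPM in WT, a log2 difference of 0.08 ± 0.26 (SE, edgeR adjusted p = 0.851). Its neighbour PtXaAlbH.03G044900.v5.1 stood at 9.86 and 1.23 CPM, a log2 difference of 2.96 ± 0.51 (SE, edgeR adjusted p = 0.00311). The genes of these runs were chosen by their place in the identifier order.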

How the data were processed

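The deposited files hold raw counts of reads for each gene, with SD8 and CH2 in separate tables. HISAT2 is named in the submitters' processing notes, without a version. The sources used here do not name the counting program, genome build or strand setting. The authors deposited the counts without normalization, per the file headers and values. One SD8 column carries an extra digit in its name and matched WT replicate 1 alone. The labels differ on the long-day period (6 or 4 weeks) and on what was pooled for a replicate (3 buds or 2 plants). Replicates differed by more than sampling noise (chi-square per degree of freedom 6.75 to 29.6 over genes with at least 20 counts).

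Levels are CPM from column totals. Tests used edgeR 4.0.16 in R 4.3.3 on the 10 SD8 libraries, with filterByExpr, TMM scaling, the quasi-likelihood F test and Benjamini-Hochberg adjustment over 26947 genes. Lines and WT formed 5 groups of 2, or constructs and WT 3 groups. The biological coefficient of variation was 0.118 and 0.191. The SE is the absolute log2 fold change over the square root of F. Alternatives were RLE scaling, DESeq2 1.42.0, limma-voom (limma 3.58.1), other filters, the replicate number as a block, single libraries left out, a fit of all 20 libraries, other groupings of lines, and other versions of the rule. On simulated counts with 200 changed genes among 26947, the comparison of TEML2_2ox with WT recovered 84% of 2-fold and 95% of 4-fold changes, with 6.77% false calls. The comparison of TEML2_2ox with TEML2_1ox recovered 71% and 97%, with 4% false calls, and that of TEML1_1ox with WT 76% and 97%, with 10.4% false calls.

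Named genes were those with the 2 highest SD8 means, those at the limits of the rule, and per comparison up to 2 higher and 2 lower called genes with the largest fold and no overlap of libraries; others are marked. Members, lists and tests were chosen with earlier results of these data known. Lists of named gene families could not be used, as the files give no names.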

Additional observations from a re-analysis of the deposited data

Results flagged for a closer look

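Single libraries stood apart from the other 3 of their construct in 4 of 40 checks on named genes and on the summed level, where chance would give about 1 in 20. PtXaAlbH.19G032100.v5.1 was at 9.42 CPM (356 counts) in TEML1_1ox replicate 1 at SD8, against 0.264 CPM or less in the other 3 TEML1ox libraries. At CH2 the same gene had 3 counts (0.0788 CPM) in TEML1_1ox replicate 1 and 4 counts (0.104 CPM) in TEML2_2ox replicate 1, and 0 in the other 3 libraries of each construct. With 3 libraries at 0 any count meets this criterion, and 3 counts are what a count of 0 allows, so these CH2 values are no sign of a library that differs. PtXaAlbH.13G007600.v5.1 was at 0.847 CPM in TEML1_1ox replicate 2 at CH2, against 0.183 to 0.262 CPM in the other 3 TEML1ox libraries.

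The effect against WT at SD8 differed between TEML2_2ox and TEML2_1ox for 69 of the 150 genes by the direct test between the lines (edgeR adjusted p under 0.05), 66 of them higher in TEML2_2ox. Of all genes tested 20.3% were called in that test, and without TEML2_2ox replicate 1 the count of 69 was 34, with 4.43% of all genes.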

How the results depend on the processing

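For TEML2_2ox against WT the count of 78 was 51 at an adjusted p under 0.01 (9.67% of all genes) and 48 to 87 with single libraries left out. Its other 8 alternatives stayed within 1.5 times. For TEML2_2ox against TEML2_1ox the count of 69 was 44 at that threshold (7.3%) and 34 to 76 with single libraries left out. For TEML1_1ox the count of 1 was 27 in DESeq2 (2.86% of all genes), 8 in the fit of all 20 libraries (1.09%), 5 without the low-count filter (0.416%), 0 at an adjusted p under 0.01 and 0 to 19 with libraries left out (up to 3.01%). For TEML1_2ox it was 7 in DESeq2 (1.81%), 3 in the fit of all 20 libraries (0.668%), 0 at the stricter threshold and 0 to 11 with libraries left out (up to 6.27%). For TEML2_1ox 0 became 3 in DESeq2 (0.586%) and was 0 without each library. For TEML1ox 0 became 3 in DESeq2 (0.263%), 1 in the fit of all 20 libraries (0.052%), 1 when lines were separate groups (0.271%) and 0 to 1 with libraries left out. For TEML2ox it became 4 in DESeq2 (0.776%) and 28 when lines were separate groups (4.25%), and was 0 without each library. For TEML1_2ox against TEML1_1ox it became 9 in DESeq2 (1.35%) and 0 to 6 with libraries left out. The cause was not tested. A comparison with 1 library in a group takes its spread from the other groups.

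The numbers do not pair the replicates by any label. Deviations of same-numbered replicates correlated at -0.247 to 0.205 over 10 pairs of lines. With the replicate number as a block 77 genes passed for TEML2_2ox against WT (21.8% of all genes) and 66 for TEML2_2ox against TEML2_1ox (18.5%).

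Of the 150 genes, 65 remained with a CH2 limit of 0.25 CPM and 49 with 1 CPM. Single libraries left out kept 120 to 147, lowest without a WT library at CH2. TMM-scaled totals kept 132, the SD8 median 129, no overlap condition 142, a ratio of 8 all 150, and the CH2 median, added after seeing the data, 133.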
